A study of Danio rerio with 12 samples.

Results

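The small TIM proteins are soluble chaperones of the mitochondrial intermembrane space. Described here are 5 zebrafish genes for such proteins: *timm8a* (ENSDARG00000023672), *timm8b* (ENSDARG00000055708), *timm13* (ENSDARG00000058297), *timm9* (ENSDARG00000043865) and *timm10* (ENSDARG00000069116). Their values are given in *mia40a* mutant larvae and their wild-type siblings. The small TIM genes, or the family, mean these 5 genes below, and the related gene *timm10b* is counted with the TIM22 complex instead. The 5 were matched by Ensembl identifier. They are among 20963 genes measured at 8 days post fertilization (dpf) and 31953 measured at 5 dpf. At 8 dpf none of the 5 genes passed the test between the genotypes, against 4.66% of all tested genes. At 5 dpf all 5 had higher values in every mutant pool than in every wild-type pool, against 12.9% of all tested genes. Of the 5, 3 rose significantly, by 1.33-fold to 1.59-fold, against 3.82% of all tested genes. Only the rise of *timm8b* stayed significant with each pool left out in turn.

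Mut larvae were homozygous for the *mia40a* allele that the labels call waw1 (mia40a waw1/waw1), WT larvae were their wild-type siblings, and all came from the AB background. Each of the 12 libraries was made from a pool of 5 whole larvae, with 3 Mut and 3 WT pools at 8 dpf and again at 5 dpf. The 8 dpf larvae had been fed from 5 dpf, so age and feeding cannot be told apart. The paper that describes the study gives its mutant line another allele name than the labels do. It names starvation of the 8 dpf mutants as a possible bias, so nutrition may differ between the genotypes at that age. Nutrition was not tested here. In RNA of whole larvae, fewer cells of a type and less RNA per cell cannot be told apart.

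Small TIM proteins are made in the cytosol and enter the intermembrane space unfolded, where the oxidoreductase Mia40 traps them and helps to form the disulfide bonds of their paired cysteine motifs. Work in yeast showed that Tim9 and Tim10 assemble into ring-shaped hexamers that escort metabolite carriers to the TIM22 complex of the inner membrane and beta-barrel proteins to the outer membrane. Tim8 and Tim13 form a second kind of hexamer with a narrower set of clients, among them the channel protein Tim23. Loss of human TIMM8A causes a deafness-dystonia syndrome. *mia40a* itself is one of a pair of zebrafish genes for Mia40 and is listed as *chchd4a*.

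The deposited values are read counts per gene that the authors normalized for library size and rounded to whole numbers, and they are called normalized values here. The 8 dpf values had also been corrected for a batch by the authors. Because each age was normalized on its own, no level is set against that of the other age. Summed over all genes, libraries held 22595423 to 25417541 at 8 dpf and 16997847 to 18177809 at 5 dpf. The targeted gene, *mia40a*, had 383, 413 and 443 in Mut and 488, 394 and 397 in WT at 8 dpf, and 264, 262 and 261 in Mut against 82, 91 and 92 in WT at 5 dpf. Its values overlapped at 8 dpf and were higher in Mut at 5 dpf, and since a frameshift can leave a transcript in place, these levels do not check the labels. Mut and WT were compared with limma on the log2 of the normalized value plus 1 over all genes that averaged at least 5 over the pools of an age, which left 20963 genes at 8 dpf and 22521 at 5 dpf, all 5 small TIM genes included at both ages. The threshold for a call was an adjusted p of 0.05 after Benjamini-Hochberg correction, and fold changes are Mut over WT. The labels name separate pools and say nothing of separate clutches, so p values rest on the spread between these pools and not between clutches. In limma the spread of each gene is moderated by that of all tested genes. At 8 dpf it is the spread left after the batch removal.

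At 8 dpf, 0 of the 5 small TIM genes were called by limma, against 4.66% of all tested genes called in either direction and 3.32% called lower in Mut. At an unadjusted p under 0.05, 1 of the 5 would be counted, *timm10*, which was lower in Mut. The share of all genes at that unadjusted threshold is not given here. *timm10*, one of the partners in the TIM9-TIM10 hexamer, had 753, 814 and 953 in Mut and 1319, 1074 and 987 in WT. Every Mut pool lay below every WT pool, the first WT pool was the highest, and the means were 840 ± 103 in Mut and 1127 ± 172 in WT (SD, n = 3 pools each). In limma its log2 fold change came to -0.42 (standard error 0.13, 95% interval -0.72 to -0.12, adjusted p 0.114). Its partner *timm9* had 640, 633 and 682 in Mut and 788, 646 and 670 in WT. These groups overlapped and differed by -0.10 in log2 (standard error 0.096, adjusted p 0.593).

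Among the genes of the TIM8-TIM13 hexamer at 8 dpf, *timm13* had 127, 95 and 125 in Mut and 167, 138 and 134 in WT. This is the other member of the family whose Mut pools all lay below the WT pools, and 2 of 5 genes doing so compares with 17.3% of all tested genes. Its log2 fold change was -0.34, with a standard error of 0.18 that is the widest of the family and an adjusted p of 0.315. *timm8a*, the ortholog of the human deafness-dystonia gene, had 558, 577 and 660 in Mut and 715, 561 and 549 in WT, which overlapped. Its log2 fold change of -0.017 (95% interval -0.30 to 0.27, adjusted p 0.952) had no stable sign with single pools left out. *timm8b*, a second gene for the TIM8 subunit, had 871, 807 and 980 in Mut and 1077, 965 and 879 in WT. The groups overlapped here too, with a log2 fold change of -0.14 (95% interval -0.38 to 0.11, adjusted p 0.505).

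All 5 fitted log2 fold changes were below 0 at 8 dpf, while 52.1% of all tested genes had one above 0. Their median was -0.14, against 0.012 over all genes tested. The first WT pool had the highest value of its group for each of the 5 genes, and the values of the 5 genes summed to 2949, 2926 and 3400 in Mut, against 4066 in that pool and 3384 and 3219 in the remaining WT pools. Without that pool the log2 fold changes of *timm10*, *timm13*, *timm8b*, *timm9* and *timm8a* were -0.28, -0.23, -0.049, -0.0012 and 0.12, so the sign of *timm8a* turned and *timm9* was close to 0. Without the second Mut pool *timm13* was at -0.19 and *timm8b* at -0.062. The batch removed by the authors is that of the pools numbered 3. Within the 2 Mut and 2 WT pools of the other batch the log2 fold changes of *timm10*, *timm13*, *timm8b*, *timm9* and *timm8a* were -0.60, -0.46, -0.28, -0.16 and -0.16, again with 0 called, and the batch of the pools numbered 3 holds 1 pool of each genotype and gives no test.

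**Figure D1:**
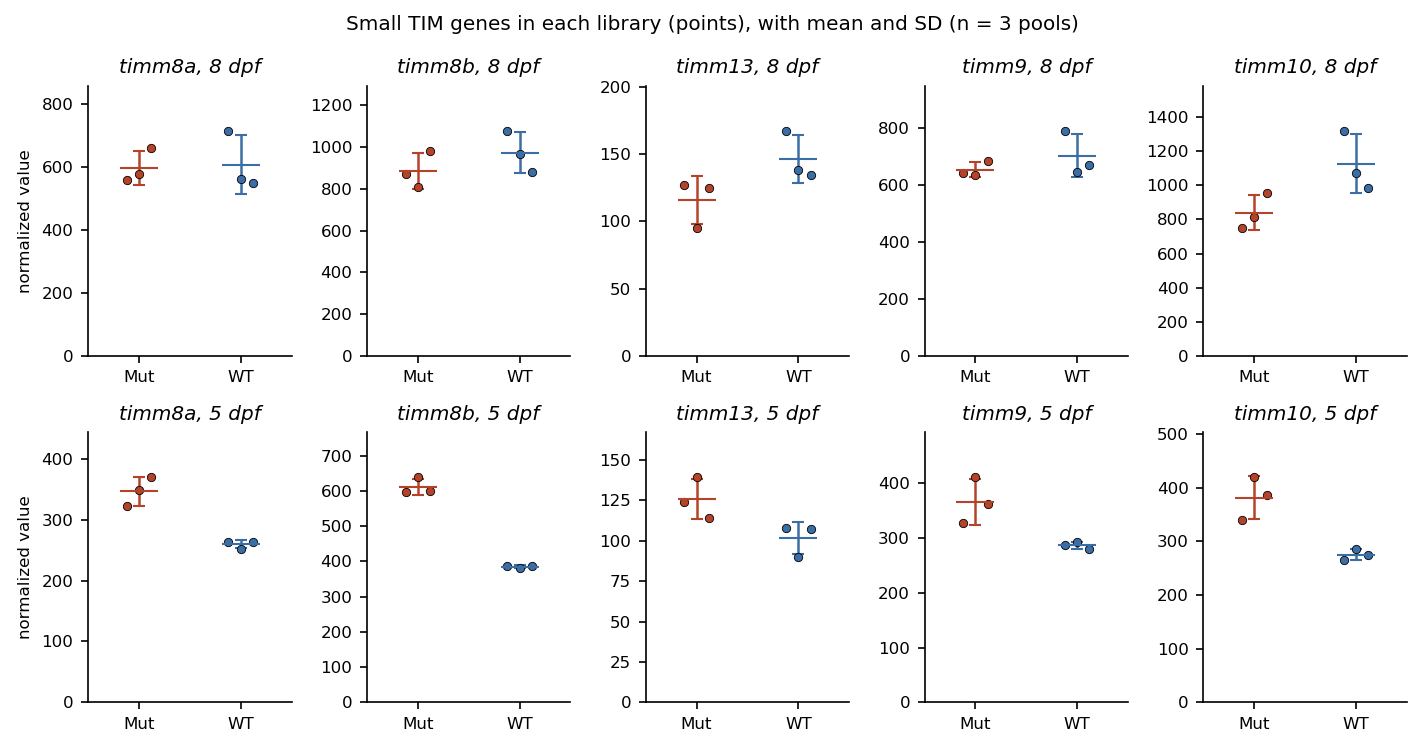
Normalized value (vertical axes, from 0) of each small TIM gene in every library, with the mean and SD of each group (n = 3 pools); the upper row is 8 dpf and the lower row 5 dpf, with Mut to the left of WT in each panel. At 5 dpf the Mut points of all 5 genes lie above the WT points, while at 8 dpf *timm10* and *timm13* lie below WT in every Mut pool and the other 3 genes overlap.

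At 5 dpf, 3 of the 5 genes (*timm8b*, *timm10* and *timm8a*) were called higher in Mut by limma, against 3.82% of all tested genes. For all 5 genes every Mut pool lay above every WT pool, against 12.9% of all tested genes. None of the 5 reached the study's added threshold of 0.9 in log2 fold change, which 1.15% of all tested genes passed together with the adjusted p. The 5 genes summed to 1708, 1954 and 1830 in Mut and to 1309, 1300 and 1313 in WT, a ratio of means of 1.4. The SD of the 3 WT sums was 6.66, below the 36.2 that counting alone would give if the values were reads.

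The largest rise of the family was that of *timm8b*, which had 596, 638 and 600 in Mut and 386, 380 and 388 in WT. The groups were far apart, with means of 611 ± 23.2 in Mut and 385 ± 4.16 in WT (SD, n = 3 pools each). The WT SD is 1.08% of its mean, below the 4.48% that counting alone would give for *timm8b* if the values were reads. The closeness of these 3 WT values is therefore not read as precision. The log2 fold change of *timm8b*, 0.67 (standard error 0.075, 95% interval 0.50 to 0.83, adjusted p 0.000828), was exceeded by 2.83% of all tested genes. Without a mean-variance trend in limma its adjusted p was 0.0231. It kept its call with each pool left out in turn, with log2 fold changes of 0.64 to 0.68. *timm8a* had 322, 348 and 369 in Mut and 263, 252 and 263 in WT. It rose by 0.41 in log2 (standard error 0.090, adjusted p 0.0255), 1.33-fold. *timm13*, the partner of both, had 124, 139 and 114 in Mut and 108, 90 and 107 in WT. It has the lowest values of the family, with the lowest Mut pool at 114 and the highest WT pool at 108, and its log2 fold change of 0.30 (standard error 0.14) did not pass (adjusted p 0.252).

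For the TIM9-TIM10 pair at 5 dpf, *timm10* had 339, 419 and 386 in Mut and 265, 285 and 275 in WT. It rose by 0.47 in log2 (standard error 0.10, adjusted p 0.0233), 1.38-fold, with the second Mut pool highest. *timm9* had 327, 410 and 361 in Mut and 287, 293 and 280 in WT, and its second Mut pool was again the highest. Its log2 fold change of 0.35 (standard error 0.10, 95% interval 0.12 to 0.57) missed the threshold, with an adjusted p of 0.0756.

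The calls of *timm8a* and *timm10* were less secure than that of *timm8b*. Both were lost without the second Mut pool, without the third Mut pool and without the first WT pool, each of which left *timm8b* alone, and *timm8a* was also lost without the second WT pool. Their adjusted p over the 6 fits that leave out 1 pool ranged from 0.0340 to 0.134 for *timm8a* and from 0.0205 to 0.114 for *timm10*, while the log2 fold changes stayed between 0.37 and 0.47 and between 0.39 and 0.55. Both were also lost in limma without a mean-variance trend (adjusted p 0.0769 and 0.0906) and with no filter on low values (0.0609 and 0.105).

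**Figure D2:**
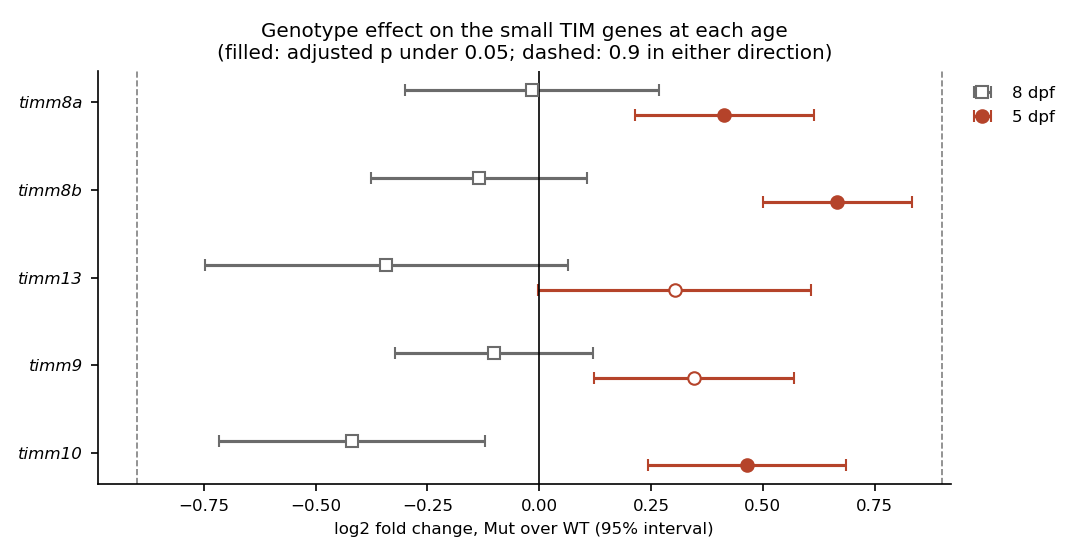
Log2 fold change of each small TIM gene, Mut over WT (horizontal axis), with its 95% interval from limma; squares are 8 dpf, circles 5 dpf, filled symbols have an adjusted p under 0.05 and dashed lines mark 0.9 in either direction. The 5 circles lie between 0.30 and 0.67 and the 5 squares between -0.42 and -0.02.

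Whether the genotype difference itself changed with age was tested as the log2 fold change at 8 dpf minus that at 5 dpf, with p values adjusted over the 20598 genes present in both fits. It was significantly lower at 8 dpf for 2 of the 5 genes, against 6.15% of all genes. For *timm10* the difference was -0.88 (standard error 0.16, 95% interval -1.23 to -0.54, adjusted p 0.00286), from log2 fold changes of -0.42 at 8 dpf and 0.47 at 5 dpf. For *timm8b* it was -0.80 (standard error 0.13, 95% interval -1.08 to -0.53, adjusted p 0.00117), from -0.14 at 8 dpf and 0.67 at 5 dpf. Both passed with each of the 12 pools left out in turn.

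The other 3 genes had differences in the same direction that did not pass, -0.65 for *timm13* (adjusted p 0.0923), -0.45 for *timm9* (0.0554) and -0.43 for *timm8a* (0.102). The 95% interval of each of these 3 differences lay below 0 before adjustment, the nearest bound being -0.11 for *timm8a*. The median difference was -0.65 over the 5 genes and 0.017 over all genes. The difference of *timm9* passed under some settings, with an adjusted p of 0.0361 when libraries were scaled to the same total and of 0.0279 without the first Mut pool of 5 dpf. *timm10* and *timm13* had Mut above WT in every pool at 5 dpf and below WT in every pool at 8 dpf, a pattern shared by 3.11% of all genes.

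Partners of a hexamer were also set against each other as a ratio within each library, which does not depend on how libraries were scaled. The batch removal at 8 dpf acted gene by gene, so it can still alter a ratio there. Gene length was not divided out, so a ratio is read only between genotypes and not as a ratio of transcript numbers. *timm9* over *timm10* was 0.850, 0.778 and 0.716 in Mut and 0.598, 0.602 and 0.679 in WT at 8 dpf, a log2 difference of 0.32 with no overlap. At 5 dpf the order was turned round, with 0.965, 0.979 and 0.935 in Mut and 1.08, 1.03 and 1.02 in WT, a log2 difference of -0.12 and again no overlap.

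*timm8a* over *timm13* was 4.37, 6.02 and 5.25 in Mut and 4.26, 4.04 and 4.07 in WT at 8 dpf, without overlap and 0.32 higher in log2. At 5 dpf this ratio overlapped, with 2.58, 2.49 and 3.22 in Mut and 2.42, 2.78 and 2.44 in WT. *timm8b* over *timm13* overlapped at 8 dpf, with 6.81, 8.42 and 7.79 in Mut and 6.42, 6.95 and 6.52 in WT, and lay higher without overlap at 5 dpf, with 4.78, 4.56 and 5.23 in Mut and 3.55, 4.19 and 3.60 in WT. Between the 2 genes for the TIM8 subunit, *timm8b* over *timm8a* was 1.56, 1.4 and 1.48 in Mut and 1.51, 1.72 and 1.60 in WT at 8 dpf, which overlapped. At 5 dpf the ratio was 1.85, 1.83 and 1.62 in Mut and 1.47, 1.51 and 1.47 in WT, higher in every Mut pool by a mean of 0.25 in log2. An exact permutation test (two-sided) of 3 pools against 3 has 0.1 as its smallest p, and the 5 ratios without overlap reached that value. At 8 dpf the pools were permuted without regard to the batch, so the p values of that age are only descriptive. Over the 8 tests the adjusted p values were 0.16 to 0.5. The smallest possible p lies above the threshold for a call, so no ratio could pass. These tests therefore cannot decide whether a ratio differed between the genotypes. How often other gene pairs lack overlap is not given here, so the count of 5 has no baseline.

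**Figure D3:**
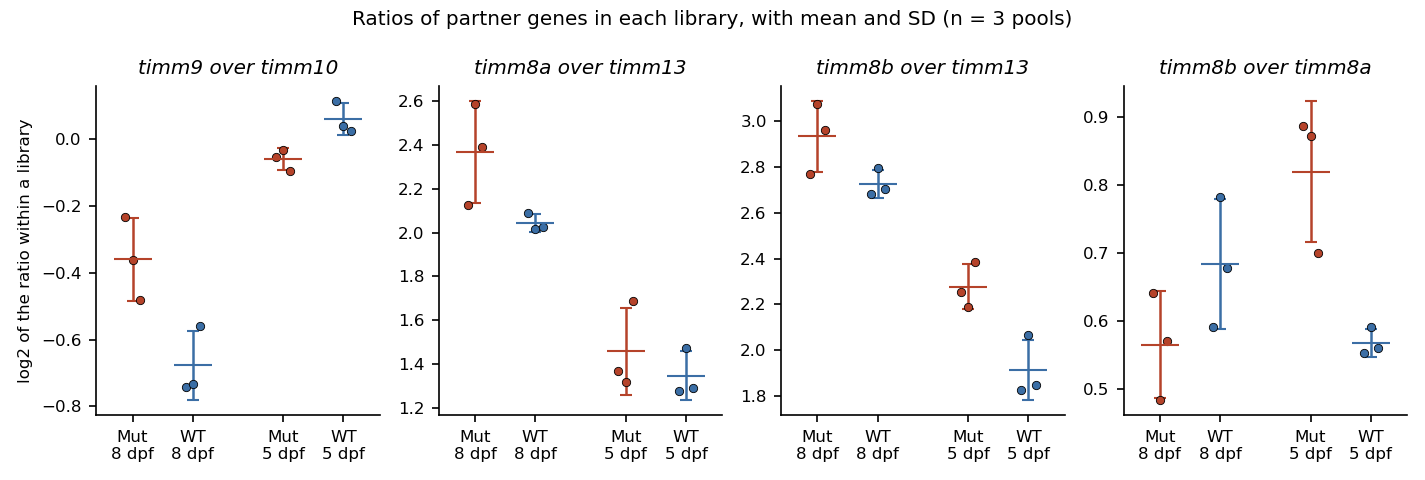
Log2 of the ratio of partner genes within each library (vertical axes, which differ between panels and do not start at 0), with the mean and SD of each group (n = 3 pools); from left to right in each panel are Mut and WT at 8 dpf and Mut and WT at 5 dpf. The *timm9* over *timm10* points of Mut lie above those of WT at 8 dpf and below them at 5 dpf.

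With each age centred on its own mean, the 5 genes moved together over the 12 libraries, with Pearson correlations of 0.60 to 0.91 over the 10 pairs. After centring on the mean of each genotype and age, which removes the genotype difference, they were 0.40 to 0.87. These are descriptions over libraries that share scaling and batch removal. Correlations between pairs of other genes are not given here, so these have no baseline and are not read as a trait of the family. In the first WT pool of 8 dpf the mean age-centred log2 of the 5 genes was 0.30, against 0.029 and -0.026 in the other WT pools. Correlations without that pool are not given here. Among 20593 other genes, the 3 whose centred profile was most like the mean of the family were *CDK5RAP3* (Pearson r 0.99, n = 12 libraries), *DNPH1* (0.98) and *PELO* (0.98). *CDK5RAP3* had log2 fold changes of -0.17 at 8 dpf and 0.47 at 5 dpf. *PELO*, the ribosome rescue factor pelota, had -0.23 at 8 dpf and 0.38 at 5 dpf. *DNPH1*, a nucleotide hydrolase, had -0.16 at 8 dpf and 0.35 at 5 dpf, and was not called at 5 dpf by limma (adjusted p 0.118). At 8 dpf the 3 genes were not called (adjusted p 0.481 for *CDK5RAP3*, 0.556 for *DNPH1* and 0.271 for *PELO*). The genotype difference is part of the profile by which the 3 were picked. Their fold changes therefore follow from the choice and are no separate result.

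The 5 genes lie on 5 different chromosomes of GRCz12tu, a later assembly than the GRCz10 used for the counts, so only names of neighbours were taken from it. Of the 9 matched neighbours, 1 was called lower at 8 dpf by limma, against 3.32% of all genes, and 0 were called at 5 dpf, against 3.82% higher and 2.17% lower. At an unadjusted p under 0.05, 3 of the 9 would count as higher in Mut at 5 dpf and 2 as lower. The share of all genes at that unadjusted threshold is not given here, so these counts are not read as a result. The one called was *LSM7*, next to *timm13*, with 1092, 1135 and 1101 in Mut and 1406, 1387 and 1423 in WT. *timm13* overlaps *tmprss9* in that assembly, and reads on several genes were left out of the counts by the authors, which can lower the count of either. *tmprss9* had 195, 176 and 183 in Mut and 242, 215 and 202 in WT at 5 dpf, the opposite order to *timm13*. *uqcrq*, a respiratory complex III subunit gene next to *timm8a*, had 1922, 2325 and 2097 in Mut and 1975, 1796 and 1740 in WT at 5 dpf, which overlapped and was not called (adjusted p 0.220). In 2 of the 9 neighbours every Mut pool lay above every WT pool at 5 dpf, against 12.9% of all tested genes. Their log2 fold changes were like those of the members but their values were lower. *zgc:101583*, next to *timm8a*, had 81, 71 and 65 in Mut and 57, 45 and 61 in WT, a log2 fold change of 0.41 (adjusted p 0.225). *si:ch211-185a18.2*, next to *timm9*, had 80, 78 and 84 in Mut and 58, 69 and 51 in WT, a log2 fold change of 0.45 (adjusted p 0.149). The neighbours with values here were chosen after these were seen.

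Genes of the other import machineries, of carried membrane proteins and of other Mia40 substrates were counted from the same limma fits. At 8 dpf none of those in the 6 lists was called in either direction, against 4.66% of all genes. Of their 69 genes, each counted once, 6 were higher and 7 lower at an unadjusted p under 0.05. The share of all genes at that unadjusted threshold is not given here, so neither count is read as a result. *cox6b1*, one of the CX9C proteins that are also substrates of Mia40, had a log2 fold change of -0.36 at 8 dpf (adjusted p 0.0948). It is named although it was not called. Of the 21 measured CX9C genes, 12 had higher fitted values in Mut at 8 dpf and 9 lower, with a median of 0.063. At 5 dpf members of every list were called higher in Mut, against 3.82% of all genes, and none was called lower, against 2.17%. In the MIA relay, the oxidative pathway that folds small TIM proteins, all 4 genes were called higher: *chchd4a* by 1.56 in log2 (standard error 0.11, adjusted p 4.28e-05), *chchd4b*, the second Mia40 gene, by 0.75 (adjusted p 0.0190), and *gfer*, which reoxidizes Mia40, by 0.60 (adjusted p 0.0180), with *aifm1*, the binding partner of Mia40, the remaining one. The list has a median of 0.68, against -0.0012 for all genes and 0.41 for the small TIM genes.

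In the TIM22 complex, the destination of carriers brought by small TIM proteins, 2 of 4 genes were called higher at 5 dpf. *timm22*, the channel, had 170, 219 and 170 in Mut and 128, 123 and 124 in WT, a log2 fold change of 0.56 (adjusted p 0.0312). *agk*, a lipid kinase that is also a subunit, rose by 0.35 (adjusted p 0.0412). *timm10b*, a small TIM relative that stays bound to TIM22, had 187, 176 and 187 in Mut and 130, 157 and 119 in WT, a log2 fold change of 0.44 that did not pass (adjusted p 0.0717). It is named although it was not called.

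Of the genes for the TIM23 translocase and its import motor, which take up proteins with presequences and do not use small TIM hexamers for that, 7 of 14 were called higher at 5 dpf, led by *hspa9*, the motor's Hsp70 (0.95, adjusted p 5.80e-05), *grpel1*, its nucleotide exchange factor (0.65), and *timm17a*, a channel subunit (0.60). For the TOM and SAM complexes of the outer membrane, 5 of 15 measured genes were called higher, led by *samm50* (0.62), the beta-barrel insertase, *tomm40l* (0.59), related to the pore of the translocase, and *tomm20a* (0.50), a receptor. Of 18 measured genes for membrane proteins carried by small TIM hexamers, 6 were called higher, with a median over the list of 0.22. Several of these genes stand in 2 lists. Of the 6 called, *samm50*, *timm17a*, *timm22* and *tomm40* are translocase or insertase subunits that are counted in another list too. The 6 calls are therefore mostly not separate from those of the other lists. With each gene counted once, 32 of the 69 genes in the 6 lists were called higher at 5 dpf, against 3.82% of all tested genes. Of 21 measured genes for other substrates of Mia40, the CX9C proteins, 12 were called higher, led by *cox6b1* (0.87), a subunit of cytochrome c oxidase, *chchd2* (0.84) and *chchd10* (0.73).

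Many of these calls at 5 dpf were lost when single pools were left out. Those of 2 of the 4 genes of the MIA relay, 0 of the 2 of the TIM22 complex, 4 of the 7 of the TIM23 translocase and motor, 2 of the 5 of the TOM and SAM complexes, 2 of the 6 carried membrane proteins and 4 of the 12 CX9C proteins passed with each pool left out in turn, as did 1 of the 3 small TIM genes. Each list had its lowest count without the second Mut pool, where 4 CX9C proteins were called, and 5 were called without the third Mut pool. The TIM22 complex had 0 called without either of these pools, without the first WT pool and without the third. A fit with a pool fewer also has less power. The share of all called genes that such fits kept is not given here.

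The difference between ages was called lower at 8 dpf for 3 of 4 genes of the MIA relay, 2 of 4 of the TIM22 complex, 5 of 14 of the TIM23 translocase and motor, 8 of 15 of the TOM and SAM complexes, 5 of 18 carried membrane proteins and 9 of 21 CX9C proteins, and it was called higher for none of them, against 6.15% lower and 1.94% higher over all genes. The small TIM genes, with 2 of 5, were one of several groups with this pattern, and these groups hold cargo and Mia40 substrates as well as import genes. With single pools left out these counts were 3 for the MIA relay, 1 to 2 for the TIM22 complex, 4 to 6 for the TIM23 translocase and motor, 3 to 9 for the TOM and SAM complexes, 3 to 5 for the carried membrane proteins and 5 to 10 for the CX9C proteins. The share of all genes called in those fits is not given here, so these ranges have no baseline.

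**Figure D4:**
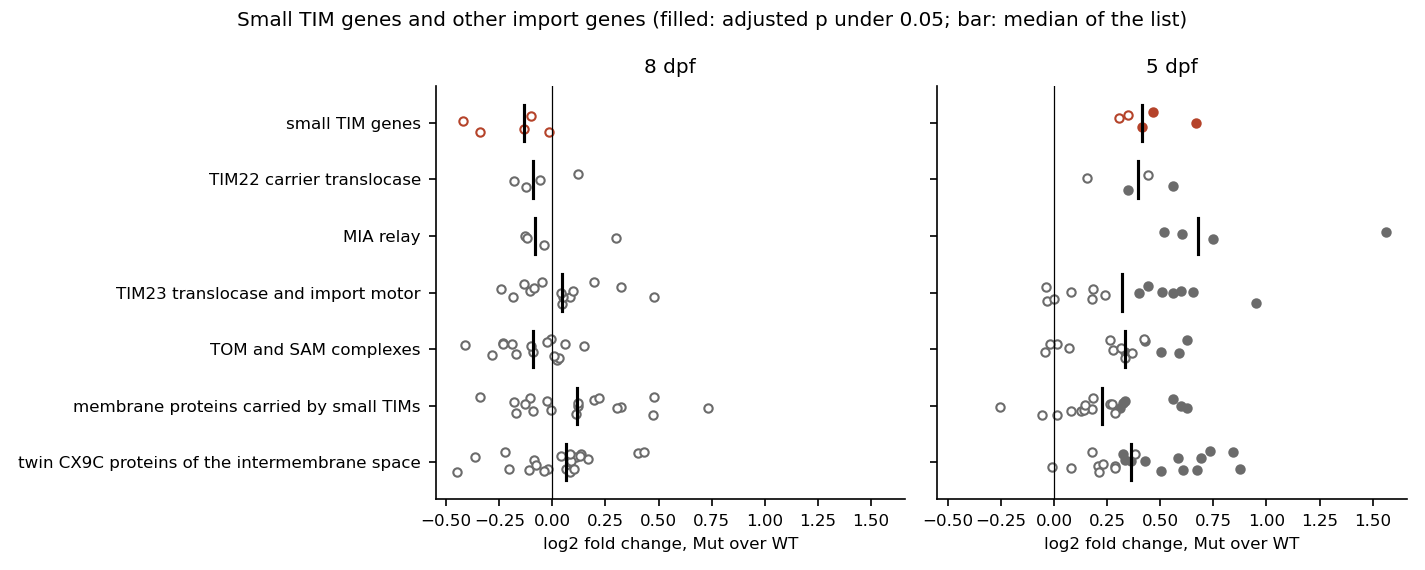
Log2 fold change, Mut over WT (horizontal axes), of the small TIM genes and of each measured gene of the other lists, at 8 dpf (left) and 5 dpf (right); filled points have an adjusted p under 0.05 and bars are list medians. No point is filled at 8 dpf, and at 5 dpf every list has filled points and all of them lie above 0.

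Markers of 3 tissues of the whole larva were counted beside these results, against 3.32% of all genes called lower at 8 dpf and 2.17% at 5 dpf. The 7 matched exocrine pancreas genes of 14 listed all had lower fitted values in Mut. By limma 0 were called at 8 dpf (4 were lower at an unadjusted p under 0.05), where their sums were 5736 to 16750 in Mut and 11925 to 38087 in WT, and 7 called at 5 dpf, where the sums were 31967 to 41923 in Mut and 72735 to 102304 in WT. Of 11 matched liver genes of 12 listed, 3 were called lower at 8 dpf, with sums of 40723 to 53311 in Mut and 55940 to 89897 in WT, and 4 at 5 dpf, with 80123 to 95916 in Mut and 102812 to 133198 in WT. Of these 11 liver genes, 10 had lower fitted values in Mut at 8 dpf and 9 at 5 dpf. The others were higher but not called, *rbp4* at 8 dpf and *fgb* and *fga* at 5 dpf. The largest fall among the called liver genes was that of *apoa2* at 8 dpf, with a log2 fold change of -1.14. At 5 dpf it was that of *ahsg2*, with 4, 5 and 3 in Mut and 262, 271 and 437 in WT (-6.00). Of 6 matched skeletal muscle genes of 12 listed, a tissue rich in mitochondria, 0 were called at either age by limma (4 were higher at an unadjusted p under 0.05 at 8 dpf and 2 at 5 dpf), and the sums were 1088957 to 1234625 in Mut and 768666 to 1077234 in WT at 8 dpf, and 440138 to 539983 in Mut and 410181 to 487105 in WT at 5 dpf. For the unadjusted counts of markers, the share of all genes at that threshold is not given here. No marker was at 0 in any group. The part of these tissues in the values of the small TIM genes was not tested.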

How the data were processed

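The libraries were stranded, made from mRNA and read from both ends over 75 bases. The authors trimmed reads with Trimmomatic 0.33, aligned them with STAR 2.4.0a to GRCz10 (Ensembl 87) and counted them with featureCounts 1.4.5-p1. The deposited scores at 5 dpf are counts divided by size factors and rounded. Those at 8 dpf had a batch effect removed by the authors with edgeR 3.16.5, were set on a linear scale and rounded. Read counts before normalization were not used here.

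Per age, log2(value + 1) was modelled in limma 3.58.1 under R 4.3.3 (lmFit, eBayes with trend, two-sided, Benjamini-Hochberg over all tested genes) with genotype, and at 8 dpf also batch. The batch at 8 dpf was read from the values, in which the pools numbered 3 stand level with the rest, and from the study's tables. The age test divided the difference of log2 fold changes by the root of the summed squared standard errors. The fit was tested on simulated data. Promoter and protein sequences were not used here.

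Symbols came from a gene name table (26121 identifiers at 5 dpf, 19701 at 8 dpf). Members and lists were chosen with earlier results of these data known. Named from each list and age are at most the 3 called genes with the largest change, with some exceptions. These are *aifm1* at 5 dpf, and *timm10b* at 5 dpf and *cox6b1* at 8 dpf, which were not called. The liver markers *rbp4* at 8 dpf and *fgb* and *fga* at 5 dpf are also named without a call. Alternatives were other pseudocounts, filters, scalings, eBayes settings, thresholds and batch terms, the replicate number as a block, and leaving out each pool.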

Additional observations from a re-analysis of the deposited data

Results flagged for a closer look

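2 results stood out because the genotype difference at 8 dpf differed from that at 5 dpf in a test of the difference itself. The log2 fold change of *timm8b* differed by -0.802, 8 dpf minus 5 dpf (adjusted p 0.00117), and that of *timm10* by -0.885 (adjusted p 0.00286). At 8 dpf neither gene was called, while both were called higher in Mut at 5 dpf. Age, feeding from 5 dpf, separate normalization and the removal of a batch effect at 8 dpf alone all change between the ages. Starvation of the 8 dpf mutants, which the paper names as a possible bias, comes in addition. These cannot be told apart here.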

How the results depend on the processing

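At 5 dpf the count of 3 called genes became 1 without a mean-variance trend, with no filter, with the replicate block and at an adjusted p under 0.01, and 0 with the added threshold of 0.9. Leaving out single pools gave counts of 1 to 3. The 1 gene was *timm8b* in each case. The replicate number marks no stated shared origin, and same-numbered pools did not deviate together at 5 dpf (r of -0.28, -0.19 and -0.096 over 17494 genes). At 8 dpf the batch removal forces -0.999 for the pools numbered 3. With 3 pools per group these r values cannot decide whether same-numbered pools share an effect. Limma with the block gave adjusted p of 0.0917 for *timm8a* and 0.0597 for *timm10* at 5 dpf. With the block, calls at 5 dpf numbered 0 of 4 in the TIM22 complex and 2 of 4 in the MIA relay. They numbered 4 of 14 in the TIM23 translocase and motor and 3 of 15 in the TOM and SAM complexes. Of the carried membrane proteins 2 of 18 were called, and of the CX9C proteins 7 of 21. The share of all genes called with the block is not given here, so these counts have no baseline. At 8 dpf the count was 0 under every alternative run. The count of 2 genes whose difference changed with age became 4 at an adjusted p under 0.1 and 0 with the threshold of 0.9, and lay between 2 and 3 when single pools were omitted. The sign turned for *timm8a* at 8 dpf, over a range of -0.16 to 0.12 with each pool left out (0.037 without the first Mut pool, 0.0094 without the second and 0.12 without the first WT pool), and for *timm8a* over *timm13* at 5 dpf, -0.0033 without the third Mut pool and up to 0.18 without another. The end at -0.16 came from the fits without a pool numbered 3, which rest on the pools numbered 1 and 2. The cause of the turned signs was not tested. 3 other scalings kept the same 3 genes called at 5 dpf. Rounded values without read numbers and 3 pools per group limit what low values such as those of *timm13* can show.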
